A study of Mus musculus with 32 samples.

Results

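The sirtuins and histone deacetylases were followed through 9 genes: Sirt1, Sirt2 and Hdac1 to Hdac7. Their probe sets were found by current gene symbol through the Entrez identifier of the array's annotation. Of the 9 genes, 8 had a probe set of their own, 1 each, so 8 probe sets of 12422 and 8 genes of 8251 were analysed. They were 92333_at for Sirt1, 95502_at for Sirt2, 96046_at for Hdac1, 160643_at for Hdac2, 103655_at for Hdac3, 104376_at for Hdac5, 104471_at for Hdac6 and 97550_at for Hdac7. Hdac4 had none and is not analysed here. RNA of C2C12 cells, a mouse myoblast line that fuses into myotubes in culture, had been hybridised to 32 Affymetrix arrays of 1 design in 2 separate arms. In the TSA arm, cells treated with trichostatin A (TSA) and control cells were sampled in growth medium (called 0 h) and 4, 12, 24 and 48 h after the change to differentiation medium. Each of these 10 groups had 2 arrays, 20 in total. In the Sir2 arm, cells with pHan-Sir2 and cells with the pHan vector were sampled at 12 and 36 h of differentiation (DM in the titles). Each of these 4 groups had 3 arrays, 12 in total. The dose of TSA, its length before 0 h and the species of the Sir2 sequence are not given in the sources used here. The labels do not state whether replicates came from separate cultures, so the spread that p-values measure may be technical.

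Lysine deacetylases remove acetyl groups from histones and other proteins, and histone deacetylation at a promoter generally goes with lower transcription. The Hdac enzymes need zinc and most are blocked by TSA, whereas the sirtuins need NAD and are not its targets. Class I enzymes (Hdac1, Hdac2 and Hdac3) sit in nuclear corepressor complexes, class IIa enzymes (Hdac5 and Hdac7) bind and hold down the myogenic factor Mef2 until they leave the nucleus, and the class IIb enzyme Hdac6 and the sirtuin Sirt2 both deacetylate tubulin in the cytoplasm. Sirt1, the mouse counterpart of yeast Sir2, is known to act with the acetyltransferase Kat2b to restrain MyoD in myoblasts.

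Promoter letters are shown for the members whose RNA moved with TSA, with Sir2 or with time, where RefSeq (GRCm38.p6) gave a window at the outermost annotated start. Each runs 5′ to 3′ on the gene's strand and ends at the base before that start. Capitals mark the GC box GGGCGG and the CCAAT box on either strand. The Sirt1 window is chr10:63339036-63339285 (minus strand), the Hdac5 window chr11:102230173-102230422 (minus strand) and the Hdac7 window chr15:97844503-97844752 (minus strand). The Sirt2 window overlapped the neighbouring gene Nfkbib, so only the 107 bases clear of it are printed, chr7:28766645-28766751 (plus strand).
Sirt1: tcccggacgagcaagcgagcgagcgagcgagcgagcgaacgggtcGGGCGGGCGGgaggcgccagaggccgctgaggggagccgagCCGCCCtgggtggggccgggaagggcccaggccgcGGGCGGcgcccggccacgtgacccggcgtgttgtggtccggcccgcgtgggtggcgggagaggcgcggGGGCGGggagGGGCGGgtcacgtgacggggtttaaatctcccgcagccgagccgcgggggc
Sirt2: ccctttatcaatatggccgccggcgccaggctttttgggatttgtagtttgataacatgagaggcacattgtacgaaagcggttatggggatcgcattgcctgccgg
Hdac5: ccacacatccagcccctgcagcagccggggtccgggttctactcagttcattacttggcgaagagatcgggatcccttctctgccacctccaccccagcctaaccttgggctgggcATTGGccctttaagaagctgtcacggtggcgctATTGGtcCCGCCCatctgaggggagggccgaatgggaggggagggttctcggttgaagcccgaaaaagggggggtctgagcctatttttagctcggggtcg
Hdac7: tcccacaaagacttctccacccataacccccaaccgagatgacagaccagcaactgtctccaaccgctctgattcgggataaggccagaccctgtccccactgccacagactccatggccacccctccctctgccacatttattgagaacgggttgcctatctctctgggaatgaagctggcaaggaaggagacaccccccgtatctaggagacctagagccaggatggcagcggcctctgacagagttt
The Sirt1 window held 39 CpG dinucleotides, more than 98.4% of all 32851 windows of this length, whose median was 6. It had 79.2% G or C and 6 GC boxes, of which a pair overlaps. Neither box lies in the Sirt2 stretch, but the rest of its 250-base window, not printed, holds 1 GC box and 2 CCAAT boxes. The Hdac5 window held 12 CpG, 1 GC box and 2 CCAAT boxes, and the Hdac7 window held 6 CpG and neither box. Windows at inner annotated starts of Hdac7, also not printed, held 5, 21 and 25 CpG, the last with 1 GC box. A GC box was present in 32.7% of all windows and a CCAAT box in 33.8%. The E-box CANNTG, a general core that is not particular to MyoD, was counted without capitals and was found in 66.2% of all windows. It occurred 2 times in the Sirt1 window, both as cacgtg, 0 times in the full Sirt2 window, 1 time in that of Hdac5 and 1 time in that of Hdac7. These are letter matches and say nothing about binding in these cells.

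Values are the deposited intensities, 1 per probe set and array, scaled within an arm to a common trimmed mean (801 for the TSA arm and 150.1 for the Sir2 arm), and levels are not compared between arms or between probe sets. Replicate arrays had Spearman correlations of 0.911 to 0.966 among TSA-arm groups, and of 0.961 to 0.973 among Sir2-arm groups. All 10 myoblast and myotube markers had an arm mean over the filter level in both arms. So did 4 of 5 fibroblast markers in the TSA arm and 3 in the other, and of the adipocyte markers Lep alone. No leukocyte marker did, and of 5 endothelial markers 1, Kdr, did in the TSA arm and 0 did in the Sir2 arm. The RNA is of whole cultures, in which fewer cells of a type and less RNA per cell cannot be told apart. Log2 changes were taken with limma after adding 137.7 (TSA arm) or 8.82 (Sir2 arm), so they understate changes of dim probe sets. Values after ± are standard deviations for intensities and standard errors for log2 changes.

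A probe set was counted as near background in a group, or in an arm, where its mean there was under the level used as a filter, 144.9 for the TSA arm and 31.1 for the Sir2 arm. In the TSA arm Sirt1 was near background in 9 of 10 groups, all but TSA at 48 h, and was at or below 0 on 8 of 20 arrays. Its mean over the arm was 30.6, so it entered no test there. Hdac1 was near background in 1 of 10 groups, control at 48 h, and Hdac3 in 1 of 10, control at 12 h. Sirt2, Hdac2, Hdac5, Hdac6 and Hdac7 were above the level on all 20 arrays. In the Sir2 arm Sirt1 had an arm mean of 37.6 and 4 of 12 arrays under the level, and was near background in 1 of 4 groups, vector at 12 h. The other 7 members were above the level on all 12 arrays. Thus 7 members were tested with TSA and 8 with Sir2, where Sirt1 reached the filter only through the Sir2 cells and is treated apart. Where 1 of 2 groups was near background, a fold is given as a lower bound, the geometric mean of the brighter group over that of the dimmer one with its arrays raised to the filter level.

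Sirt1 stood clear of background in the TSA arm only in treated cells at 48 h, where the arrays read 199 and 408. Control cells at 48 h read 105 and 14.8. At 0 h the readings were -64.5 and -48.8 with TSA and 12.3 and 28.6 in control, and at 4 h -36.0 and -39.5 with TSA and 100.5 and -10.9 in control. Both treated arrays at 48 h were above every other array of the arm. At 12 h the arrays read 3.99 and -50.0 with TSA and 8.38 and -66.7 in control, and at 24 h 5.14 and -61.4 with TSA and 83.1 and 19.6 in control. Against control at 48 h, and likewise against TSA at 0 h, the treated arrays at 48 h were at least 1.97-fold higher. With the filter dropped, all 12422 probe sets were tested, and Sirt1 at 48 h passed over control (limma, adjusted p = 0.0250, beside 13% of all). It also passed over TSA at 0 h (adjusted p = 0.00261, beside 16.3%). In the same fit TSA against control passed for Sirt1 at none of the earlier times (lowest adjusted p = 0.603, at 4 h). Neither the mean over the 5 times (adjusted p = 0.988) nor the moderated F test of a difference between times (adjusted p = 0.0910) passed. The call over control was lost without control replicate 2 (adjusted p = 0.156) or TSA replicate 2 (adjusted p = 0.182) at 48 h.

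**Figure D1:**
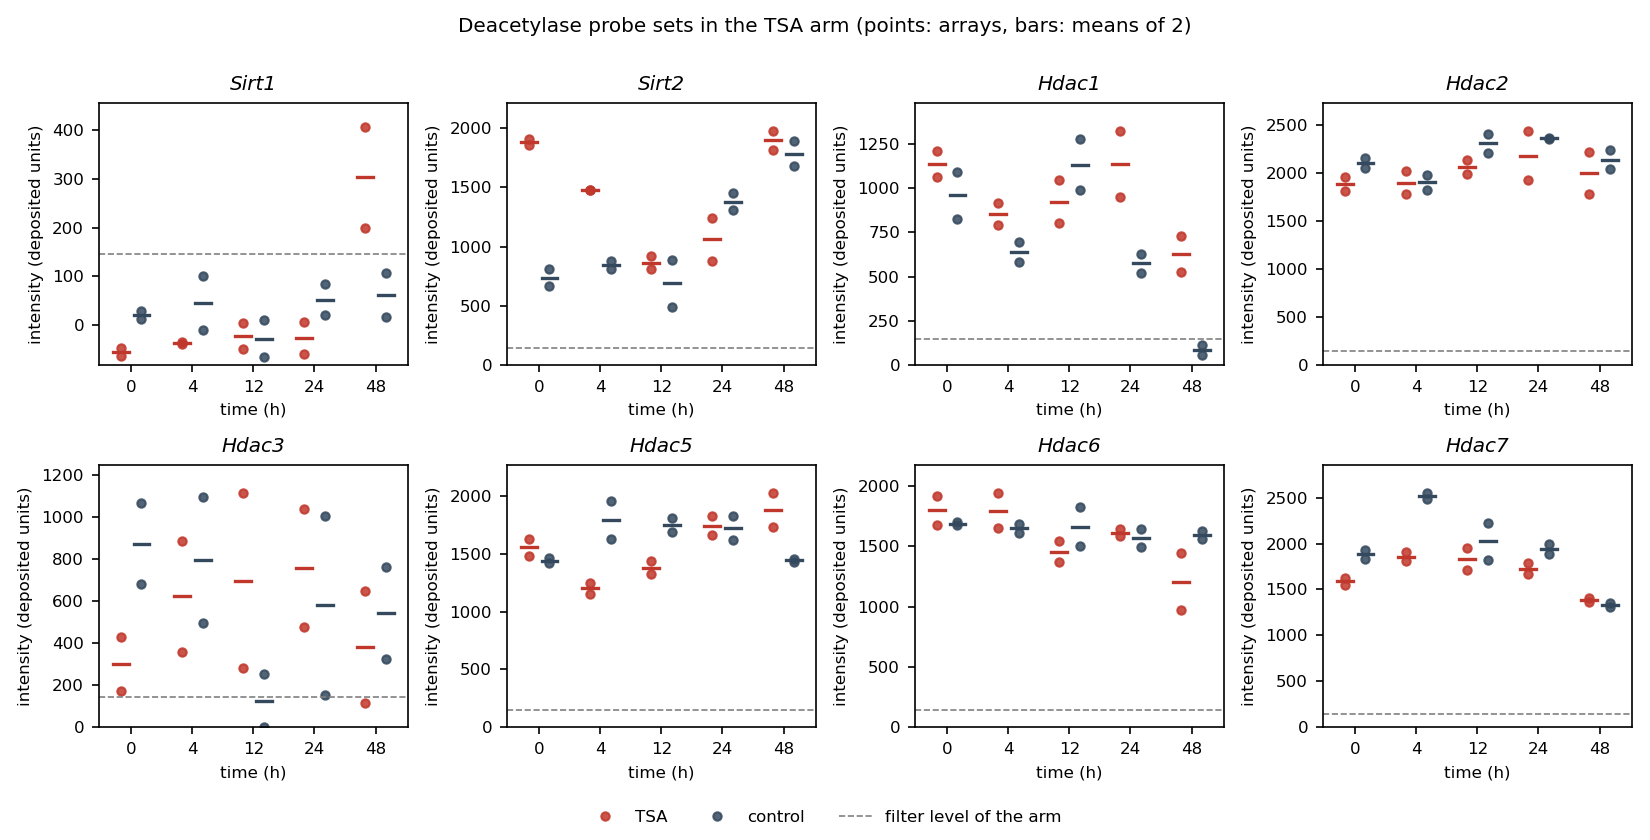
Deposited intensity (vertical axis, arbitrary units on a linear scale, a separate scale for each gene) of the 8 deacetylase probe sets against time in h, with TSA left of control at each time. Points are arrays, bars are means of 2, and the dashed line is the filter level of 144.9. Sirt1 lies under the line except with TSA at 48 h, Sirt2 is high with TSA at 0 and 4 h, and Hdac1 drops under the line in control at 48 h.

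Sirt2, the tubulin deacetylase among the sirtuins, was higher with TSA in growth medium and 4 h after the switch, and passed at no later time. At 0 h it read 1909 and 1859 with TSA and 663 and 813 in control, and at 4 h 1477 and 1480.0 with TSA and 807 and 878 in control. The groups were far apart at both times. At 12 h it read 809 and 921 with TSA and 885 and 491 in control, at 24 h 1239 and 882 with TSA and 1454 and 1305 in control, and at 48 h 1977 and 1818 with TSA and 1891 and 1679 in control. The groups overlapped at 12 and 48 h, and at 24 h both treated arrays were below both controls. The log2 change was 1.21 ± 0.20 at 0 h (limma, adjusted p = 0.00107) and 0.72 ± 0.20 at 4 h (adjusted p = 0.0371), and at the later times 0.32 ± 0.20, -0.36 ± 0.20 and 0.08 ± 0.20, none of which passed. The effect differed between times (moderated F test, adjusted p = 0.0111), and its mean over the 5 times was 0.40 ± 0.09 (adjusted p = 0.00662). The call at 4 h was lost when any 1 of the 4 arrays at that time was left out (adjusted p = 0.109 to 0.183), and with no filter (adjusted p = 0.0540).

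In the order of its 10 group means, Sirt2 was highest with TSA at 48 h (1897 ± 113), TSA at 0 h (1884 ± 35.4) and control at 48 h (1785 ± 150.5), whose arrays overlapped. TSA at 4 h (1479 ± 1.88), control at 24 h (1379.6 ± 105) and TSA at 24 h (1060.4 ± 252) followed, each clear of its neighbours above. The 4 lowest groups lay between 688 and 865, in the order TSA at 12 h, control at 4 h, control at 0 h and control at 12 h. The arrays of control at 12 h overlapped those of each of the other 3, and TSA at 12 h overlapped TSA at 24 h.

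Hdac1, a catalytic subunit of the Sin3, NuRD and CoREST corepressor complexes, was higher with TSA late in the series. At 24 h it read 952 and 1324 with TSA and 523 and 627 in control. At 48 h it read 729 and 525 with TSA and 112 and 59.1 in control. At both times both treated arrays were above both controls, and at 48 h both controls were near background. At 0 h the readings were 1063 and 1209.8 with TSA and 827 and 1094 in control, at 4 h 914 and 792 with TSA and 581 and 694 in control, and at 12 h 1045 and 802 with TSA and 988 and 1277 in control. Only at 4 h were these groups apart. At 48 h Hdac1 was at least 4.27-fold higher with TSA (limma, adjusted p = 0.000101). The fitted difference there was 1.77 on the log2 scale, a size that depends on the pseudocount, being 1.32 with it doubled and 2.17 with a floor in its place. The log2 change was 0.83 ± 0.21 at 24 h (adjusted p = 0.0379), and 0.22 ± 0.21, 0.36 ± 0.21 and -0.26 ± 0.21 at 0, 4 and 12 h, none of which passed. The effect differed between times (adjusted p = 0.00292), and its fitted mean, which takes in 48 h, was 0.58 ± 0.09 (adjusted p = 0.000689). The call at 24 h was lost without replicate 2 of control (0.72, adjusted p = 0.187), without replicate 3 of control (0.93, adjusted p = 0.0947) and without replicate 3 of TSA (0.62, adjusted p = 0.255). The call at 48 h held without any 1 array, and was lost when the 4 arrays of that time were fitted alone (adjusted p = 0.0799).

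Ordered by group means, Hdac1 was highest with TSA at 24 h (1138 ± 263), TSA at 0 h (1137 ± 104) and control at 12 h (1132 ± 204.5), and neighbours in the order overlapped down to TSA at 4 h (853 ± 86.2). A gap separated that group from control at 4 h (638 ± 79.3), which overlapped TSA at 48 h (627 ± 144), which overlapped control at 24 h (575 ± 74.0). Control at 48 h (85.7 ± 37.6) was lowest and apart from all others.

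Hdac2, the close paralogue of Hdac1 in the same complexes, stayed within 1779.7 to 2437 over the 20 arrays of the TSA arm. Its highest time was 24 h in both conditions, with 1924 and 2437 with TSA and 2367 and 2349 in control. The log2 changes with TSA lay between -0.15 and -0.0029 with a standard error of 0.14 at each time, and none passed (lowest adjusted p = 0.546). The 95% interval of the mean change was -0.23 to 0.03. Hdac3, the enzyme of the NCoR and SMRT complexes, could not be resolved in this arm. Its replicates were 281 and 1116 with TSA and 251 and 2.04 in control at 12 h, and 477 and 1039 with TSA and 155 and 1005 in control at 24 h. Replicates of 1 group differed more than the groups did at most times, and the standard error of its log2 change was 0.81 at each time. At 0 h it read 431 and 173 with TSA and 680.1 and 1067 in control, at 4 h 360.3 and 888 with TSA and 497 and 1095 in control, and at 48 h 116 and 649 with TSA and 765 and 323 in control. Its changes ran from -1.24 at 0 h to 0.56 at 24 h apart from 12 h, where control was near background, and none passed (lowest adjusted p = 0.326 over these comparisons and the F test).

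Hdac5 and Hdac7, the class IIa partners of Mef2, were both lower with TSA at 4 h. Hdac7 read 1811 and 1908 with TSA and 2552 and 2485 in control at 4 h. The control readings at 4 h were the 2 highest of the arm. At the other times the Hdac7 arrays read 1630.2 and 1554 with TSA and 1927 and 1837 in control at 0 h, 1712 and 1955 with TSA and 1820.1 and 2228 in control at 12 h, 1789 and 1667 with TSA and 1994 and 1885 in control at 24 h, and 1405 and 1359 with TSA and 1312 and 1357 in control at 48 h. The treated arrays were the lower ones at 0 and 24 h, the groups overlapped at 12 h, and at 48 h the treated arrays were slightly above. The log2 change at 4 h was -0.41 ± 0.11 (limma, adjusted p = 0.0336), and at 0, 12, 24 and 48 h it was -0.22, -0.13, -0.15 and 0.05, each ± 0.11, and none passed. The mean over the 5 times was -0.17 ± 0.05 (adjusted p = 0.0249), and the F test of a difference between times did not pass (adjusted p = 0.271). Leaving out any 1 of the 4 arrays of 4 h ended the call there (adjusted p = 0.0834 to 0.160). That of the mean was lost without control at 0 h replicate 1, control at 4 h replicate 1, control at 12 h replicate 2, TSA at 0 h replicate 2, TSA at 12 h replicate 1 or TSA at 24 h replicate 3 (adjusted p = 0.0509 to 0.0625).

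Hdac5 read 1244 and 1155 with TSA at 4 h and 1629 and 1954 in control. At 12 h it read 1436 and 1324 with TSA and 1688 and 1807 in control, and at 48 h 2026 and 1731 with TSA and 1458 and 1428 in control. The treated arrays were below the controls at 4 and 12 h and above them at 48 h. At 0 h the arrays read 1482 and 1630.4 with TSA and 1459 and 1418 in control, so both treated arrays were slightly above both controls. At 24 h they read 1823 and 1665 with TSA and 1827 and 1618 in control, and the groups overlapped. The log2 change was -0.52 ± 0.12 at 4 h (adjusted p = 0.0145), -0.31 ± 0.12 at 12 h (adjusted p = 0.214) and 0.35 ± 0.12 at 48 h (adjusted p = 0.0650), of which only the first passed. The effect differed between times (adjusted p = 0.0149), and the mean of -0.07 ± 0.05 did not pass (adjusted p = 0.377). The call at 4 h was lost without replicate 2 of control (-0.40, adjusted p = 0.138) and without replicate 2 of TSA (-0.48, adjusted p = 0.0863).

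Hdac6, the cytoplasmic tubulin deacetylase, passed at no time with TSA. At 48 h it read 1439.8 and 968 with TSA and 1628 and 1563 in control. At 0 h it read 1677 and 1920.2 with TSA and 1701 and 1676 in control, and over 4, 12 and 24 h the arrays lay between 1368 and 1942 with TSA and between 1493 and 1823 in control. Both treated arrays were below both controls at 48 h, by very different margins. The log2 change at 48 h was -0.39 ± 0.16 (limma, adjusted p = 0.110), and at the other times it lay between -0.17 and 0.11. Without replicate 1 of TSA at 48 h it was -0.65 and passed (adjusted p = 0.0160).

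Of the 7 members tested, 3 passed for the mean TSA effect, Sirt2 and Hdac1 higher and Hdac7 lower, beside 22% of all 7453 probe sets tested (10.2% higher and 11.9% lower). At 0 h 1 passed (background 17.9%), at 4 h 3 (11.4%, with 5.61% higher and 5.74% lower), at 24 h 1 (5.94%) and at 48 h 1 (19.6%). At 12 h 0 passed in limma, beside 4.08% of all probe sets. There 1, Hdac5, had an unadjusted p under 0.05, for which no share of all probe sets was taken. The effect of TSA differed between times for 3 members, Sirt2, Hdac1 and Hdac5, beside 22.2% of all. With 7 members these shares are those of a few genes. The median mean change was -0.07 over the 7 members and -0.03 over all probe sets tested.

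**Figure D2:**
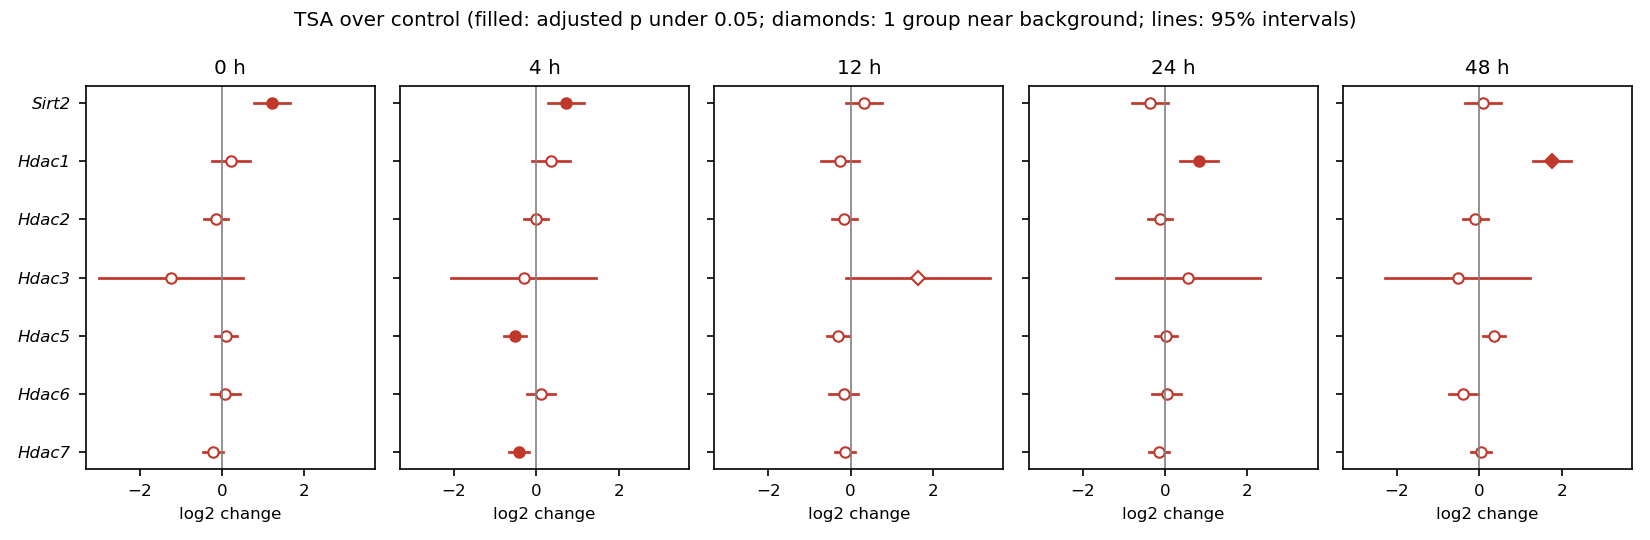
Log2 change of TSA over control (horizontal axis) for the 7 tested members, 1 panel per time, with 95% intervals. Filled points passed an adjusted p of 0.05, and diamonds are fitted differences against a control group near background, whose size depends on the pseudocount. Sirt2 passed at 0 and 4 h, Hdac5 and Hdac7 at 4 h, and Hdac1 at 24 and 48 h, while the intervals of Hdac3 span several log2 units.

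Differentiation without TSA was read from the control groups, whose arrays the TSA comparisons also use. Across the 5 control times 3 of 7 members changed (moderated F test), beside 40% of all probe sets. They were Hdac1 (adjusted p = 8.74e-06), Hdac7 (adjusted p = 0.000852) and Sirt2 (adjusted p = 0.000876). At 48 h against 0 h the same 3 passed, beside 35.3% of all (16% higher and 19.3% lower). Hdac1 was at least 6.57-fold lower (adjusted p = 3.66e-06), with 85.7 ± 37.6 at 48 h, near background, against 961 ± 189 at 0 h. Its fitted difference was -2.30 on the log2 scale, and -1.77 with a doubled pseudocount or -2.79 with a floor. Sirt2 rose by 1.14 ± 0.20 (adjusted p = 0.000781), to 1785 ± 150.5 at 48 h, against 738 ± 106 at 0 h. Hdac7 fell by 0.46 ± 0.11 (adjusted p = 0.00714), to 1334 ± 31.9 at 48 h, against 1882 ± 63.6 at 0 h. Its level at 4 h, 2518 ± 47.4, was above both. The call for Hdac7 was lost without replicate 1 of control at 0 h (-0.42, adjusted p = 0.0517) and when only the 4 arrays compared were fitted (adjusted p = 0.0880). Hdac2, Hdac5 and Hdac6 had changes of 0.02 ± 0.14, 0.0039 ± 0.12 and -0.08 ± 0.16, with 95% intervals of -0.27 to 0.32, -0.26 to 0.27 and -0.42 to 0.27. Hdac3 had a change of -0.62 ± 0.81, which did not pass.

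Treated cells at 48 h were set against treated cells at 0 h in the same way, and 2 of 7 members passed, beside 26.4% of all probe sets. Hdac1 fell by 0.75 ± 0.21 (adjusted p = 0.0199), to 627 ± 144 at 48 h, against 1137 ± 104 at 0 h, and stayed above background. Hdac6 fell by 0.55 ± 0.16 (adjusted p = 0.0229), to 1204 ± 334 at 48 h, against 1798 ± 172 at 0 h. Sirt2, already high at 0 h, had a change of 0.01 ± 0.20, and Hdac7 of -0.19 ± 0.11. Both calls depended on single arrays. Hdac1 did not pass without replicate 1 of TSA at 0 h (adjusted p = 0.0531), replicate 2 at 0 h (0.116) or replicate 2 at 48 h (0.155), and Hdac6 did not without replicate 2 at 0 h (0.147) or replicate 2 at 48 h (-0.29, adjusted p = 0.230).

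In the Sir2 arm, Sirt1 was higher in Sir2 cells than in vector cells. At 12 h it read 37.5, 48.7 and 39.9 in Sir2 cells and 20.3, 9.48 and 14.2 in vector cells. At 36 h it read 80.5, 69.2 and 35.8 in Sir2 cells and 39.4, 19.6 and 36.9 in vector cells. The groups were apart at 12 h, with vector cells near background, and overlapped at 36 h through replicate 3 of Sir2. At 12 h Sirt1 was at least 1.34-fold higher in Sir2 cells.

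Sirt1 reached the filter level only through the Sir2 cells, whose 6 arrays averaged 52.0, while the 6 vector arrays averaged 23.3. It was therefore read from the fit of all 12422 probe sets, on which the filter has no bearing, and is left out of the counts of members below. There the mean of both times passed (limma, adjusted p = 0.0168, beside 5.63% of all), also without any 1 of the 12 arrays (adjusted p = 0.00544 to 0.0476). Neither time passed by itself (adjusted p = 0.0743 at 12 h and 0.184 at 36 h), nor did the difference between them (adjusted p = 0.786). Whether the probe set reads the introduced Sir2 RNA, the cells' own Sirt1 RNA or both is not stated by the labels.

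**Figure D3:**
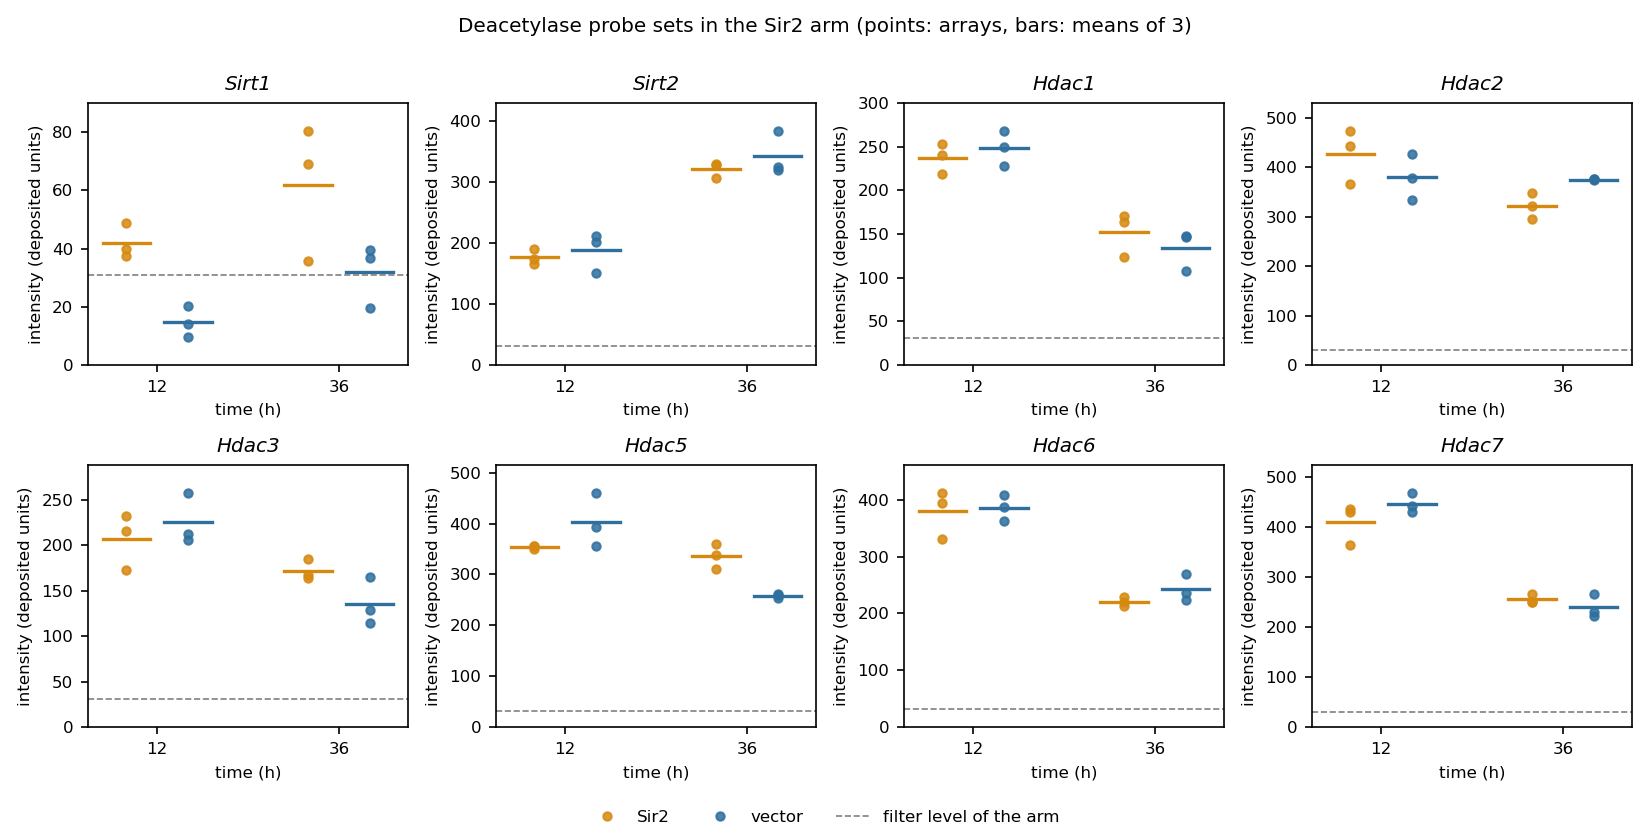
Deposited intensity (vertical axis, arbitrary units on a linear scale, a separate scale for each gene) of the 8 probe sets at 12 and 36 h, with Sir2 cells left of vector cells. Points are arrays, bars are means of 3, and the dashed line is the filter level of 31.1. Sirt1 is the only gene with arrays under the line, and Hdac1, Hdac6 and Hdac7 are lower at 36 h than at 12 h in both kinds of cell.

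Of the 7 other members 0 passed in limma for the mean of Sir2 against vector, beside 12.6% of all 7453 probe sets, and 0 had an unadjusted p under 0.05. At 12 h the counts were again 0 and 0, beside 5.55% of all. At 36 h 0 passed, beside 9.26% of all, and 2 had an unadjusted p under 0.05, Hdac3 and Hdac5. The difference of the effects between 36 and 12 h passed for 0 members, beside 1.76% of all, and 1, Hdac5, had an unadjusted p under 0.05. The shares of all probe sets are of those past the adjusted threshold, and none was taken for the unadjusted counts. The median mean change was -0.02 over the 7 members and -0.01 over all probe sets tested. Their mean changes lay between -0.08 (Sirt2) and 0.11 (Hdac3). Their 95% intervals reached no lower than -0.29 (Sirt2) and no higher than 0.34 (Hdac3).

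Hdac5 and Hdac3 had the largest differences among these 7, both at 36 h. Hdac5 read 338, 311 and 359 in Sir2 cells at 36 h and 259, 261 and 253 in vector cells. The groups were apart, but the change of 0.37 ± 0.11 did not pass (adjusted p = 0.0603). At 12 h Hdac5 read 349, 356 and 355 in Sir2 cells and 357, 460.0 and 392 in vector cells, a change of -0.18 ± 0.11 (adjusted p = 0.452). The difference between these effects was 0.54 ± 0.16 (adjusted p = 0.111). Hdac3 read 164, 167 and 184 in Sir2 cells at 36 h and 128, 164 and 114 in vector cells, nearly apart, with a change of 0.34 ± 0.15 (adjusted p = 0.208). Hdac2 read 348, 321 and 296 in Sir2 cells at 36 h and 376, 376 and 373 in vector cells, with a change of -0.22 ± 0.13 (adjusted p = 0.324).

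Time was read within each kind of cell. In Sir2 cells 5 of the 7 members other than Sirt1 passed at 36 h against 12 h, beside 28.5% of all probe sets, 1 higher (11.7%) and 4 lower (16.9%). In vector cells 6 of the 7 passed, beside 32.1%, 1 higher (12.4%) and 5 lower (19.7%). The median change was -0.40 over the 7 members and -0.05 over all probe sets in Sir2 cells, and -0.65 and -0.02 in vector cells. Sirt2, Hdac1, Hdac6 and Hdac7 passed in both, in the same direction.

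Sirt2 read 327, 306 and 329 at 36 h and 165, 189.9 and 173 at 12 h in Sir2 cells, and 319.6, 383 and 324 at 36 h and 151, 211 and 202 at 12 h in vector cells. The times did not overlap in either kind of cell. It rose by 0.84 ± 0.13 in Sir2 cells (limma, adjusted p = 0.000544) and by 0.85 ± 0.13 in vector cells (adjusted p = 0.000452). Sirt1 passed in neither kind of cell when all 12422 probe sets were tested (adjusted p = 0.408 in Sir2 cells and 0.0832 in vector cells).

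Among the class I enzymes, Hdac1 read 171, 124 and 163 at 36 h and 218, 253 and 241 at 12 h in Sir2 cells, and 108, 148 and 147 at 36 h and 268, 228 and 249.8 at 12 h in vector cells. All arrays of 36 h were below all of 12 h. It fell by 0.62 ± 0.15 in Sir2 cells (adjusted p = 0.00847) and by 0.86 ± 0.15 in vector cells (adjusted p = 0.000947). Hdac2 had read 474, 366 and 443 in Sir2 cells and 379, 427 and 334 in vector cells at 12 h. It fell by 0.40 ± 0.13 in Sir2 cells (adjusted p = 0.0345) and had a change of -0.01 ± 0.13 in vector cells. Leaving out replicate 1 or 3 of Sir2 at 12 h (adjusted p = 0.127 and 0.0953) or replicate 2 or 3 at 36 h (0.0730 and 0.113) ended that call, as did no filter (0.0707) and a fit of only the groups compared (0.0738). Hdac3 had read 233, 216 and 173 in Sir2 cells and 212, 257 and 206 in vector cells at 12 h. It had a change of -0.25 ± 0.15 in Sir2 cells (adjusted p = 0.259) and fell by 0.70 ± 0.15 in vector cells (adjusted p = 0.00416). The tests of a difference between the kinds of cell did not pass for Hdac2 (adjusted p = 0.343) or Hdac3 (adjusted p = 0.355).

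Of the class IIa enzymes, Hdac7 read 251, 249 and 266 at 36 h and 429, 435 and 364 at 12 h in Sir2 cells, and 266, 229 and 222 at 36 h and 442, 429 and 468 at 12 h in vector cells. It fell by 0.66 ± 0.11 in Sir2 cells (adjusted p = 0.000766) and by 0.88 ± 0.11 in vector cells (adjusted p = 7.86e-05). Hdac5 had a change of -0.07 ± 0.11 in Sir2 cells (adjusted p = 0.662) and fell by 0.62 ± 0.11 in vector cells (adjusted p = 0.00109). The class IIb enzyme Hdac6 read 220.0, 229 and 214 at 36 h and 412, 395 and 332 at 12 h in Sir2 cells, and 237, 269.5 and 223 at 36 h and 362, 388 and 408 at 12 h in vector cells. The times were apart for Hdac6 and Hdac7 in both kinds of cell, and Hdac6 fell by 0.75 ± 0.11 in Sir2 cells (adjusted p = 0.000386) and by 0.65 ± 0.11 in vector cells (adjusted p = 0.00103). Vector cells and the control cells of the TSA arm, at different hours, thus both had lower Hdac1 and Hdac7 and higher Sirt2 at the later time. Hdac5 and Hdac6 also fell in vector cells. In control cells at 48 h against 0 h their changes were 0.0039 ± 0.12 and -0.08 ± 0.16, and neither passed. Hdac3 fell in vector cells and was not resolved in control cells (-0.62 ± 0.81).

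**Figure D4:**
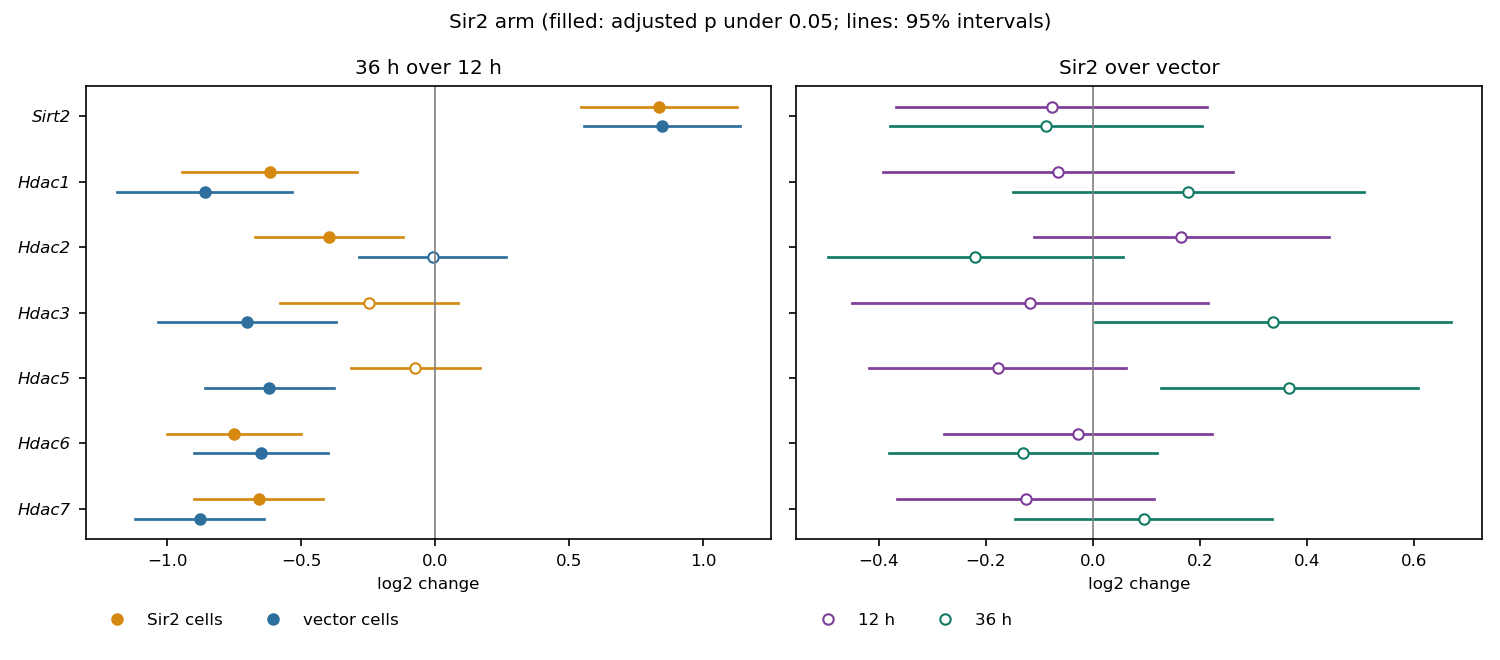
Log2 changes (horizontal axes) of the 7 members other than Sirt1 with 95% intervals, for 36 h over 12 h in Sir2 and vector cells (left) and for Sir2 over vector at 12 and 36 h (right). Filled points passed an adjusted p of 0.05. On the left Sirt2 lies near 0.84 in both kinds of cell and Hdac1, Hdac6 and Hdac7 lie below -0.6, and on the right 0 members passed.

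The genes whose pattern over the 10 group means of the TSA arm was most like that of a member were listed for the 3 members that changed across the control series. For Sirt2 they were Ccndbp1 (Pearson r = 0.97), Txndc16 (0.95) and Xpr1 (0.94), for Hdac1 Jup (0.97), Kng1 (0.95) and Car4 (0.95), and for Hdac7 Ctbp2 (0.94), Gja1 (0.94) and Sgo1 (0.93). These are the highest of 7453 probe sets over 10 points that share their arrays, and are given as a description.

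Proteins that work with the deacetylases were counted from lists of known partners. Of 16 tested partners in corepressor complexes, 1 rose and 2 fell for the mean TSA effect, beside 10.2% of all probe sets higher and 11.9% lower, with a median of 0.01. The Sin3 subunit Sap30 fell by 0.53 ± 0.09 (limma, adjusted p = 0.00110), the NCoR exchange factor Tbl1xr1 fell by 0.47 ± 0.09 (adjusted p = 0.00271), with TSA at 4 h near background, and the NuRD subunit Gatad2a rose by 0.28 ± 0.08 (adjusted p = 0.0220). In control cells at 48 h against 0 h 3 of the 16 fell and 0 rose, beside 19.3% lower and 16% higher of all: the histone chaperone Rbbp7, which binds Hdac1 and Hdac2, fell by 1.20 ± 0.13 (adjusted p = 1.21e-05), Gatad2a by 0.79 ± 0.17 (adjusted p = 0.00325) and the scaffold Sin3b by 0.63 ± 0.15 (adjusted p = 0.00489). For the mean of Sir2 against vector 1 of the 16 rose, the NCoR subunit Tbl1x (0.29 ± 0.08, adjusted p = 0.0397), and 0 fell, beside 12.6% of all in either direction. These shares are near or below those of all probe sets.

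Of 15 tested partners of the class IIa enzymes, 2 rose and 1 fell for the mean TSA effect, beside 22% of all probe sets in either direction. Mef2a rose by 0.30 ± 0.07 (adjusted p = 0.00819). Rfxank, which binds class IIa enzymes, was higher (adjusted p = 0.0143) but reached the filter only through treated cells and was near background in 4 of 5 control groups. The kinase Camk2d was lower (adjusted p = 0.0459), with 3 of 10 groups near background, so no size is given for either. In control cells at 48 h against 0 h 4 rose and 2 fell, beside 35.3% of all. Of those that rose, Mef2c and Rfxank were near background at 0 h, so no size is given for them. The transcription factors Mef2a and Mef2d rose by 1.57 ± 0.16 (adjusted p = 7.39e-06) and 1.17 ± 0.16 (adjusted p = 0.000106), and the 14-3-3 protein Ywhah, of the family that holds class IIa enzymes in the cytoplasm, fell by 1.89 ± 0.14 (adjusted p = 3.77e-07). For the mean of Sir2 against vector 0 rose and 3 fell, beside 12.6% of all (7.49% higher and 5.09% lower). Mef2a fell by 0.54 ± 0.09 (adjusted p = 0.00178) and the heterochromatin protein Cbx5 by 0.52 ± 0.12 (adjusted p = 0.0139), and Mef2c, near background in both kinds of cell at 12 h, was lower (adjusted p = 0.0489). For TSA and for control cells the shares of these 15 genes are near those of all probe sets. With Sir2 the share that fell was above that of all, but rests on 3 genes.

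Among 7 tested genes of NAD metabolism, 0 rose and 2 fell for the mean TSA effect, beside 22% of all probe sets in either direction. Nampt, which makes the NAD precursor that sirtuins depend on, fell by 0.57 ± 0.11 (adjusted p = 0.00191) and the NAD consumer Parp2 by 0.27 ± 0.07 (adjusted p = 0.0117). In control cells at 48 h 1 of the 7 passed, beside 35.3% of all: the lactate dehydrogenase Ldha fell by 1.24 ± 0.12 (adjusted p = 4.39e-06). With Sir2 1 of 7 passed, beside 12.6% of all: Parp1, near background in Sir2 cells at 36 h, was lower (adjusted p = 0.0458).

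Of 7 tested substrates and regulators of Sirt1 in the TSA arm 1 rose and 0 fell for the mean effect, beside 22% of all probe sets: Myod1 rose by 0.28 ± 0.05 (adjusted p = 0.00104). At 48 h against 0 h in control cells 2 of the 7 rose and 1 fell, beside 35.3% of all. Myod1 rose by 1.37 ± 0.11 (adjusted p = 7.67e-07) and the forkhead factor Foxo3 by 0.95 ± 0.13 (adjusted p = 8.12e-05), and the cell cycle factor E2f1, near background at 48 h, was lower (adjusted p = 0.00249). Of 6 tested in the Sir2 arm 1 fell and 0 rose, beside 12.6% of all: Myod1 fell by 0.42 ± 0.08 (adjusted p = 0.00336).

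Acetyltransferases, the opposing enzymes, had 0 of 6 pass for the mean TSA effect in limma, beside 22% of all probe sets. Of these 1, Kat7, had an unadjusted p under 0.05 (-0.20 ± 0.09), for which no share of all was taken. In control cells at 48 h 1 of the 6 passed, beside 35.3% of all: Crebbp, near background at 48 h, was lower (adjusted p = 0.00795). With Sir2 1 of 8 passed, beside 12.6% of all: the coactivator Ncoa1 fell by 0.54 ± 0.16 (adjusted p = 0.0481). Of the other deacetylase genes listed, 1 had a probe set, Sirt3, and it was tested in neither arm.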

How the data were processed

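The deposited table holds intensities on a linear scale, 1 per probe set and array, and no column of values was left unused. The authors' values of the Sir2 arm are signal intensities from MAS5, per the submitters' processing notes. For the TSA arm no tool is given in the sources used here. Of each of its arrays 21.0% to 24.2% of the deposited values were at or below 0, which MAS5 signal never is. No counts exist, so the number of arrays limits the precision. Arrays were grouped by treatment and time from their titles. Of 12488 probe sets, 66 controls were left out; of the rest 10833 had 1 symbol, 396 several and 1193 none.

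Before log2 was taken, negative values of the TSA arm were raised to 0 and a pseudocount was added: the 40th percentile of the deposited values there (137.7) and the 20th in the Sir2 arm (8.82). Tests were run on the 7453 probe sets per arm whose mean reached the 40th percentile of all means. Each arm was fitted alone with limma 3.58.1 in R 4.3.3 (lmFit with 1 mean per group, eBayes, 10 and 8 residual and 2.45 and 3.93 prior degrees of freedom). Adjusted p values are Benjamini-Hochberg values over all tested probe sets of a comparison, with a threshold of 0.05. Tested on simulated data, the fit recovered 10.4%, 59.7% and 90.9% of changes of 0.5, 1 and 2 on the log2 scale for TSA at 12 h, and 19.4%, 91.0% and 98.5% for Sir2 at 12 h, with 6 false calls in each run of 7453.

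All members are named. Other genes are up to 3 of smallest p per list and comparison among those past the threshold, and for patterns the 3 of highest Pearson r. Not all are printed. Kat7, and in control cells Mef2c and Rfxank, were named after their values were seen. The members and lists were chosen with earlier results of these data known. Alternatives were quantile normalization, a doubled pseudocount, a floor in its place, no filter or one at the 60th percentile, limma's trend and robust options, a replicate block, a covariate for a title suffix, fits of only the groups compared and leaving out each array. Figures were drawn with matplotlib 3.10.9 under Python 3.11.15.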

Additional observations from a re-analysis of the deposited data

Results flagged for a closer look

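The effect of TSA on 3 members differed between the 5 times, by limma's moderated F test of the 4 later effects against that at 0 h. For Sirt2 the adjusted p was 0.0111, with log2 changes of 1.21, 0.72, 0.32, -0.36 and 0.08 at 0, 4, 12, 24 and 48 h. For Hdac1 it was 0.00292, with 0.22, 0.36, -0.26, 0.83 and 1.77 at the same times, the last a fitted difference against control cells near background. For Hdac5 it was 0.0149, with 0.10, -0.52, -0.31, 0.02 and 0.35. Without any 1 of the 20 arrays the adjusted p stayed between 0.00196 and 0.0408 for Sirt2, 0.00301 and 0.0131 for Hdac1, and 0.0149 and 0.0415 for Hdac5. What lies behind these differences was not tested.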

How the results depend on the processing

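No called change of a member reversed its direction under any alternative run. Each called single-gene change was refitted many times, and the counts here are of these runs. Under other settings 214 runs kept the call and 17 lost it. With an array left out 174 runs kept it and 40 lost it. The causes were not tested. The counts of members and runs here include Sirt1 in the Sir2 arm, where it was the 1 member past the threshold for the mean and at 12 h. Sirt1 also passed there in vector cells over time. It reached the filter only through the Sir2 cells, so these filtered calls are not read as results. With every probe set tested the mean passed (limma, adjusted p = 0.0168), but 12 h (0.0743) and vector cells over time (0.0832) did not. With no filter the members passing were 2 for TSA at 4 h (Sirt2 lost, adjusted p = 0.0540) and 0 for TSA at 24 h (Hdac1, adjusted p = 0.0585). They were 3 for TSA at 48 h (Hdac1, Hdac5 and Sirt1), beside 13% of all probe sets, and 0 for Sir2 at 12 h. Under the 60th percentile filter they were 2 for TSA at 48 h (Hdac5 added, adjusted p = 0.0408), 0 for Sir2 at 12 h and 0 for the Sir2 mean, since Sirt1 was not tested there, and 1 for Sir2 at 36 h (Hdac5, adjusted p = 0.0332). Trend and robust variance also gave 1 for Sir2 at 36 h (Hdac5, adjusted p = 0.0358). Fitting only the groups compared, with fewer arrays, gave 0 for TSA at 4, 24 and 48 h. It gave 0 for TSA-treated cells at 48 h against 0 h, and ended the call for Hdac7 in control cells at 48 h against 0 h (adjusted p = 0.0880). Apart from the 13% above, no share of all probe sets is set beside the counts under these settings or with an array left out. Those counts show only which calls were kept or lost. A covariate for the 4 TSA-arm arrays with a b in the title's replicate code, chosen after seeing the data, gave 2 for TSA at 48 h (Hdac5, adjusted p = 0.0481). Sirt1 in vector cells over time lost its call under quantile normalization (adjusted p = 0.0684), a doubled pseudocount (0.0535), no filter (0.0832) and trend and robust variance (0.0562), and Hdac2 in Sir2 cells with no filter (0.0707) and with only the groups compared (0.0738). Leaving out arrays from the fit of all probe sets for Sirt1 was also chosen after seeing the data. Leaving out 1 array gave 2 to 3 members for the TSA mean, 1 at 0 h, 0 to 1 at 4 h, 0 at 12 h, 0 to 1 at 24 h and 1 to 2 at 48 h. It gave 3 for the difference between times, 3 across the control series, 2 to 3 for control and 0 to 2 for TSA-treated cells at 48 h against 0 h. In the Sir2 arm it gave 1 for the mean, 0 to 1 at 12 h, 0 to 1 at 36 h, 0 for the difference, 6 to 7 for vector and 4 to 5 for Sir2 cells over time. A replicate block changed no count: 3 members still passed for the TSA mean, and Hdac1 at 48 h had 1.77 (adjusted p = 0.000304). Same-numbered TSA and control arrays had deviations that correlated between -0.10 and 0.23, and Sir2 and vector arrays between -0.31 and 0.12. These are deviations from means of 2 or 3 arrays, so they cannot show whether same-numbered samples were paired. Near-background levels limit what can be said of Sirt1, of Hdac1 in control at 48 h and of Hdac3 in the TSA arm.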

Other observations

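At 48 h, where Hdac1 passed with TSA, 3 of the 16 tested partners in corepressor complexes were higher with TSA than in control and 1 was lower. Rbbp7 rose by 0.73 ± 0.13 (limma, adjusted p = 0.00170), Sin3b by 0.59 ± 0.15 (adjusted p = 0.0130) and Gatad2a by 0.57 ± 0.17 (adjusted p = 0.0371), and Tbl1x fell by 1.06 ± 0.23 (adjusted p = 0.00684). Of the 15 tested partners of class IIa enzymes 4 rose at 48 h and 0 fell: Cbx5 by 0.83 ± 0.25 (adjusted p = 0.0346), Ywhah by 0.74 ± 0.14 (adjusted p = 0.00225), Mef2d by 0.54 ± 0.16 (adjusted p = 0.0327) and Mef2a by 0.54 ± 0.16 (adjusted p = 0.0308). The acetyltransferase Crebbp, near background in control at 48 h, was higher (adjusted p = 0.00682), Ldha rose by 1.31 ± 0.12 (adjusted p = 1.13e-05), and Myod1 fell by 0.34 ± 0.11 (adjusted p = 0.0433). Beside these counts 10.5% of all probe sets tested were higher and 9.1% lower at 48 h. These genes were named after their values were seen.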
